A study of Mus musculus with 2 samples.

Results

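The 10 genes followed here across the cell types of the fetal mouse testis were *Lncbate1*, *Gm36037*, *Gm16168*, *8030451A03Rik*, *6330411D24Rik*, *4833422C13Rik*, *2600014E21Rik*, *Gm14226*, *Gm10863* and *Gm30613*. They were taken by symbol as 10 of the 32285 genes measured, and had been chosen by their RNA level across cell types in these same data, by the peaks at their promoters and by the coding gene with the nearest start, so all 3 are given as a description with no test. The label describes how the members were chosen, and the values here do not test it. In GENCODE M21, 9 of the 10 are noncoding and *Gm14226* is annotated as protein-coding, with 1 coding transcript. Of the 10, 8 stood at least 4 times higher in 1 class of nuclei than in the next class, beside 7.02% of the 15216 genes with at least 100 UMIs. The other two, *4833422C13Rik* and *2600014E21Rik*, were shared by several interstitial classes.

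Long noncoding RNAs are transcripts that are not translated. Many are spliced and polyadenylated like messenger RNAs, many stay in the nucleus, and as a group they tend to be lower and more restricted to cell types than coding genes. Some act on the gene next to them, others act at a distance, and for most no function is known. Fetal Leydig cells make androgens, Sertoli cells surround the germ cells and form the cords, and the surface epithelium covers the testis. *Lncbate1* owes its name to brown adipose tissue, where it was described as needed for brown fat identity. The other members carry placeholder names.

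The study collected testes at E14.5 from embryos carrying *Nr5a1-cre* and *Rosa-tdTomato*, a Cre transgene driven by a gene of the gonadal somatic cells and a Cre-activated red fluorescent protein. All nuclei came from such embryos, with no other genotype, treatment or age to set them against. Frozen whole testes gave 1 RNA library and 1 chromatin accessibility (ATAC) library of the same nuclei, and how many embryos were pooled is not stated in the labels or methods. With 1 library per assay there was no replicate, so every interval is a 95% interval that covers counting error only and no p-value was computed.

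Of 9833 barcodes with 122049390 UMIs (unique RNA molecules) and 58448458 ATAC fragments, 7198 nuclei were kept, with medians of 7948 UMIs and 4477 fragments. They formed 12 classes: 2527 interstitial nuclei that stayed unnamed and are called *Tacr3*-led after their leading gene, 974 germ-like nuclei, 835 Sertoli-like nuclei, 786 Leydig-like nuclei, 753 cycling progenitor-like nuclei, 563 nuclei like surface epithelium, 398 nuclei like mesonephric mesenchyme, and 5 small classes of 45 to 95 nuclei (endothelial-like, *Pax8* supporting-like, pericyte-like, immune-like and erythroid-like). The members, their nearest coding genes and all peaks within 100 kb of a member had no part in making the classes. All 5 Leydig markers were highest in the Leydig-like class, 6 of 7 Sertoli markers in the Sertoli-like class, 4 of 5 detected surface epithelium markers in the surface epithelium-like class and all 7 pericyte markers in the pericyte-like class. Only 1 of 6 progenitor markers was highest in the cycling progenitor-like class, and the list summed to 2054 CPM (UMIs per 1000000) in the *Tacr3*-led class and 1848 CPM in the cycling progenitor-like class. UMIs of the 5 Leydig markers were found in every class, summing to 4328 CPM in Leydig-like nuclei and to between 253 and 658 CPM in the other classes. The study corrected its counts for ambient RNA, free RNA that is counted with a nucleus, using DecontX. No such correction was made here. The part of ambient RNA in any level outside a leading class was not tested.

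The sequences at 3 starts and at the centre of 3 peaks whose accessibility is described further on are given first. Each was read from GRCm38.p6, the build of the files (mm10), over 300 bases, 5′ to 3′ on the strand of its gene. Capitals mark 4 motifs searched on both strands: AAGGTCA, a site bound by NR5A1 and other nuclear receptors, AGATAA for GATA factors, ACAATG for SOX factors and TATAAA for the TATA box. The promoter windows run from 250 bases before the start to 50 after it, and were chosen for 2 Leydig-like genes whose start peak led in Leydig-like nuclei and for the Sertoli-like gene whose start opened most.
*Lncbate1* promoter, chr8:108584546-108584845, minus strand: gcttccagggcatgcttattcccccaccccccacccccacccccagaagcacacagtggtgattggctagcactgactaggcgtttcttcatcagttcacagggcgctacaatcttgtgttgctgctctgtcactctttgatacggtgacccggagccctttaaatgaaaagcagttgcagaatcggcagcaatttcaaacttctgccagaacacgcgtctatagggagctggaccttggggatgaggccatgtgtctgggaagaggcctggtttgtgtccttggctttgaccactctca
*8030451A03Rik* promoter, chr4:63979604-63979903, plus strand: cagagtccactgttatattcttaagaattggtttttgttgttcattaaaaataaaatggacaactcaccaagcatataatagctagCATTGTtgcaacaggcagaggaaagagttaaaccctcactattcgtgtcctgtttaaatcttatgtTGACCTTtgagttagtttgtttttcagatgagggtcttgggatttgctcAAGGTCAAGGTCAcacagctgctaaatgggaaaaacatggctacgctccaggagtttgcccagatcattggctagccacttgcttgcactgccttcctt
*Gm10863* promoter, chr15:79165808-79166107, plus strand: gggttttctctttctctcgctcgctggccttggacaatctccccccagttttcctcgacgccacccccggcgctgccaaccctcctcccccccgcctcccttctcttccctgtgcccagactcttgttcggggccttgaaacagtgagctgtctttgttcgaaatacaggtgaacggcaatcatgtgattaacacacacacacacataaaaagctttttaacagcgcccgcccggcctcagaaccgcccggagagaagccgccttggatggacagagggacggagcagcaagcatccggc

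The *8030451A03Rik* promoter held 3 copies of AAGGTCA, 1 as the reverse complement at −98 and 2 as written at −49 and −43, which overlap each other by their last and first base. Among 32136 promoters of the same length, 4.48% held at least 1 copy and 44 promoters (0.137%) held at least 2. *8030451A03Rik* was the only one with 3. The promoters of all 10 members were searched, and AAGGTCA was found in 1 of them, so no other Leydig-like gene had it. A SOX motif lay at −164 in the *8030451A03Rik* promoter, as the reverse complement. The *Lncbate1* and *Gm10863* promoters held none of the 4 motifs. Across all promoters AGATAA was found in 11.4%, ACAATG in 12.2% and TATAAA in 13.1%, so single matches of these are common. A match is a string of letters and no binding was measured.

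For 3 genes the peak inside the gene body with the highest ratio for the class of the gene is shown as the 300 bases at its centre, again on the strand of the gene and with the same capitals.
*6330411D24Rik*, peak 41.6 kb downstream of the start, chr4:143032029-143032328, minus strand: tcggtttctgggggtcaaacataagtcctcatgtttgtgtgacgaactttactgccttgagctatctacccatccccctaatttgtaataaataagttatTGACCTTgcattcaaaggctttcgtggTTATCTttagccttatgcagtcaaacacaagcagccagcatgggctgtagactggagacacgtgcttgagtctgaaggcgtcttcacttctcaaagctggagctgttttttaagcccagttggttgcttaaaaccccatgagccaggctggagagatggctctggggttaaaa
*8030451A03Rik*, peak 1.33 kb downstream of the start, chr4:63981033-63981332, plus strand: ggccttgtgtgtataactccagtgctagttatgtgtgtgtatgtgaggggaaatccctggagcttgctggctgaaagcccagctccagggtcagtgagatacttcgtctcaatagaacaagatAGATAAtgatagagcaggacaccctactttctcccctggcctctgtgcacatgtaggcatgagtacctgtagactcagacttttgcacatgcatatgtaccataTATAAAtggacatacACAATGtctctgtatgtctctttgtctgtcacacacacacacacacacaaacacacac
*Gm10863*, peak 27.3 kb downstream of the start, chr15:79193207-79193506, plus strand: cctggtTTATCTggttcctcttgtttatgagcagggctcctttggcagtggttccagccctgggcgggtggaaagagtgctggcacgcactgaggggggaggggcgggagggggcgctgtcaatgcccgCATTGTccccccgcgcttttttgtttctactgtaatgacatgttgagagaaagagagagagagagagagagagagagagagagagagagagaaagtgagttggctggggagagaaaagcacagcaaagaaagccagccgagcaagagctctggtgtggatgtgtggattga

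The *6330411D24Rik* peak held AAGGTCA and AGATAA, at −50 and −23 from its centre, both as the reverse complement. The *8030451A03Rik* peak held AGATAA at −27 from its centre, TATAAA at 77 and ACAATG at 92. The *Gm10863* peak held a SOX motif at −21 and a GATA motif at −144 from its centre, both as the reverse complement. Of 109175 peak centres of this length, 10.8% held AAGGTCA, 17.3% AGATAA and 12.6% ACAATG.

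In Leydig-like nuclei 5 of the genes had their highest level. *Lncbate1* (ENSMUSG00000110613) lies on chr8:108553252-108584595, minus strand, as a lincRNA of 1 transcript and 2 exons whose start sits in an intron of *Zfhx3* on the opposite strand. It had 73.5 CPM in Leydig-like nuclei (interval 67.9 to 79.4, 641 UMIs) and 7.87 CPM in Sertoli-like nuclei, the next class, a ratio of 9.34 (7.38 to 12). *Gm36037* (ENSMUSG00000118380, chr18:34982922-35109445, plus strand, 3 transcripts) had 86.3 CPM in Leydig-like nuclei (80.2 to 92.6, 752 UMIs) and 11.6 CPM in endothelial-like nuclei, a ratio of 7.45 (5.08 to 11.4). *Gm16168* (ENSMUSG00000089941, chr17:10496446-10569396, plus strand) had 226.9 CPM (217 to 237, 1978 UMIs), a ratio of 12.6 (9.28 to 17.5) over endothelial-like nuclei at 18.0 CPM. For these genes tau, an index that runs from 0 for an even level to 1 for a single class, lay between 0.958 and 0.965.

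The other two Leydig-like genes gave far more counts from long gene bodies. *8030451A03Rik* (ENSMUSG00000073821, chr4:63979854-64149924, plus strand) spans 170 kb, starts in an intron of *Tnc* on the opposite strand and holds 17 *Tnc* exons within its body. It had 1609 CPM in Leydig-like nuclei (1582 to 1635.4, 14024 UMIs) against 124 CPM in endothelial-like nuclei, a ratio of 13 (11.6 to 14.6). *6330411D24Rik* (ENSMUSG00000110067, chr4:142598441-143074839, minus strand) spans 476 kb, and its start in the deposited feature table is 143073766, which is the start used here. It had 2306 CPM in Leydig-like nuclei (2274 to 2338, 20105 UMIs) against 209 CPM in pericyte-like nuclei, a ratio of 11.1 (9.39 to 13.1). The 145 UMIs in pericyte-like nuclei came from only 6 of 68 nuclei. The interval treats UMIs as independent and is too narrow for this. The counting program was run at its default settings, which count reads on the sense strand of a gene and include introns.

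*Gm14226* and *Gm10863* were highest in Sertoli-like nuclei. *Gm14226* (ENSMUSG00000084897, chr2:155018266-155027104, plus strand) lies in an intron of the agouti gene *a* on the same strand. It had 407 CPM in Sertoli-like nuclei (395 to 420, 4035 UMIs) and 49.98 CPM in *Pax8* supporting-like nuclei, a ratio of 8.14 (6.24 to 10.8). *Gm10863* (ENSMUSG00000075555, chr15:79166041-79227524, plus strand, 6 transcripts) had 173 CPM in Sertoli-like nuclei (165 to 181, 1716 UMIs) and 26.2 CPM in endothelial-like nuclei, a ratio of 6.62 (5.13 to 8.69). Neither had a single UMI in the 68 pericyte-like nuclei.

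*Gm30613* (ENSMUSG00000105300, chr5:15538002-15605066, minus strand, 1 transcript of 6 exons) was the one with the highest tau of the 10. It had 143 CPM in surface epithelium-like nuclei (133 to 153, 789 UMIs) and 11.7 CPM in immune-like nuclei, where this was 8 UMIs, giving a ratio of 12.2 (6.17 to 28.4) and a tau of 0.978. It overlaps *Gm21083* and *Gm21847* on the opposite strand. The *Gm30613* RNA was uneven among nuclei of its class: 63.4% of its UMIs came from the 10% of nuclei with the most and the highest nucleus held 60 UMIs, at a mean of 1.40 UMIs per nucleus. Genes with a mean of about the same size had 52.8% (*Gm36037*, mean 0.957), 49.8% (*Lncbate1*, mean 0.816), 50.8% (*2600014E21Rik*, mean 2.01), 42.6% (*4833422C13Rik*, mean 1.90) and 32.7% (*Gm10863*, mean 2.06) in their own classes.

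*2600014E21Rik* and *4833422C13Rik* were spread over the interstitium. *2600014E21Rik* (ENSMUSG00000100303, chr2:75138843-75317820, plus strand) is a lincRNA with 15 transcripts from 14 starts. It had 313 CPM in the *Tacr3*-led class (305 to 322), 234 CPM in cycling progenitor-like nuclei and 139 CPM in immune-like nuclei, so the first class stood only 1.34 times (1.27 to 1.41) above the next. *4833422C13Rik* (ENSMUSG00000074782, chr13:91701665-91741872, minus strand) begins in an intron of *Acot12* on the opposite strand. It had 186 CPM in 68 pericyte-like nuclei (155 to 221, 129 UMIs), 127 CPM in the *Tacr3*-led class and 90.8 CPM in cycling progenitor-like nuclei, a first ratio of 1.46 (1.21 to 1.75). Their tau values were 0.740 and 0.780. At a finer resolution no class stayed unnamed. There were progenitor-like nuclei, grouped with the cycling ones as 2259 nuclei, and 1068 contractile-like nuclei. How many of these came from the *Tacr3*-led class was not counted. *2600014E21Rik* then had 344 CPM in the progenitor-like and 133 CPM in the contractile-like nuclei, and *4833422C13Rik* 136 and 53.2 CPM. Of the 2 progenitor-like clusters pooled there, the one of 1506 nuclei had no cell cycle genes among its leading genes. It had 429 CPM (417 to 443) of *2600014E21Rik* and 172 CPM (164 to 181) of *4833422C13Rik*. The other cluster, of 753 nuclei and led by cell cycle genes, had 236 and 91.0 CPM. Cell cycle phase was not scored in single nuclei. The 172 CPM lie within the interval of the pericyte-like level of *4833422C13Rik*, so its lead there is not resolved.

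**Figure D1:**
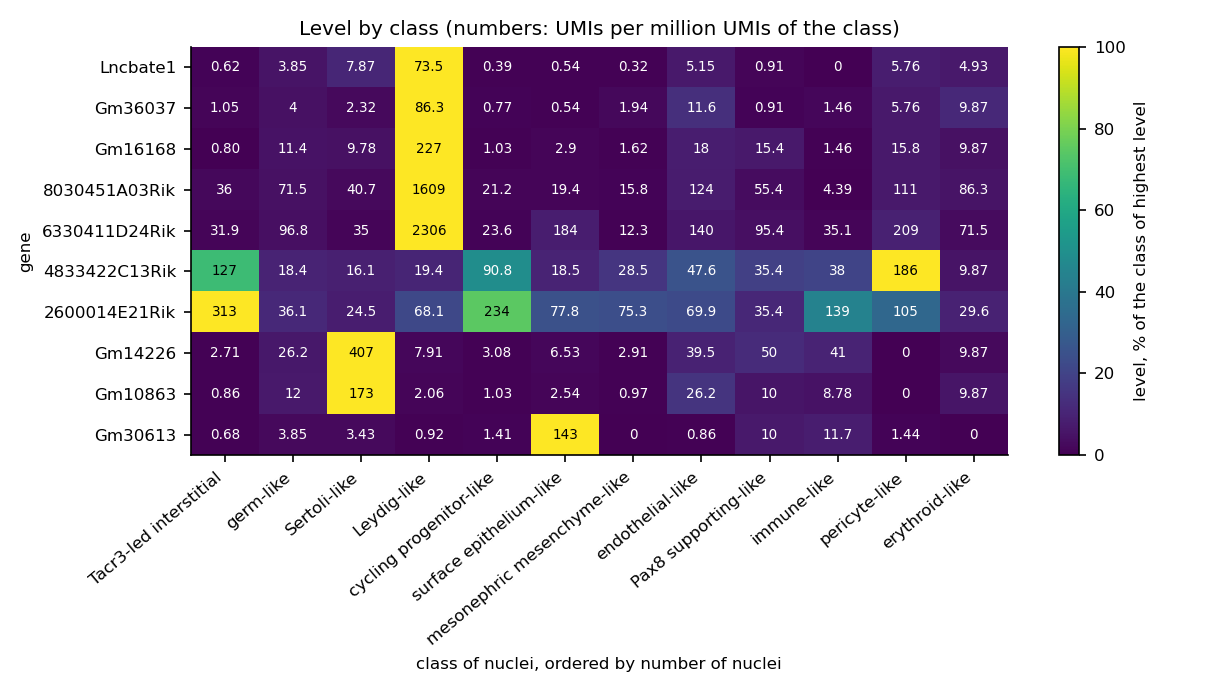
Level of each gene in each of the 12 classes of nuclei, ordered by number of nuclei. Numbers are CPM and colours are the percent of the gene's highest class. Of the 10 genes, 5 peak in Leydig-like nuclei, 2 in Sertoli-like and 1 in surface epithelium-like nuclei, while *4833422C13Rik* and *2600014E21Rik* are shared by interstitial classes.

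All 10 members passed the minimum of 100 UMIs, and 8 of 10 were called at 4 times the next class. With classes from RNA alone 7 were called, since *Gm36037* had a ratio of 3.09, and the ratios of *Gm16168* and *Lncbate1* were 4.58 and 4.76, each over erythroid-like nuclei. Of 15216 genes with 100 UMIs 7.02% were called, of 1884 other noncoding genes 11.4% and of 13314 coding genes 6.32%. With a minimum of 20 UMIs the members' count was again 8 and the share of all genes 9.35%. Because the members were picked for this very measure, nothing is read from the difference. The median tau was 0.962 for the members, 0.675 for the other noncoding genes and 0.568 for all genes. In a list of 22 well-known long noncoding RNAs, 17 passed the minimum and 2 were called (11.8%): *Snhg11* in germ-like nuclei with a ratio of 4.61 and *Pvt1* in erythroid-like nuclei with a ratio of 6.62. *Malat1*, *Meg3*, *Kcnq1ot1* and *Airn* had ratios between 1.07 and 1.54. Below the leading class the order was often not resolved: of the 11 steps from one class to the next, between 5 for *6330411D24Rik* and 10 for *Lncbate1* had an interval of the ratio that held 1. All these intervals treat UMIs as independent, and in small classes the UMIs can come from few nuclei. The 95 *2600014E21Rik* UMIs of immune-like nuclei, for example, came from 8 of 68 nuclei. In such cases the intervals are too narrow.

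Levels outside the leading class were set beside those of the 5 Leydig markers. In germ-like nuclei the 5 Leydig-like genes stood at between 4.20 and 5.24% of their Leydig-like level and the markers at 7.21%. These germ-like levels were uneven. At the finer resolution 1 germ-like cluster of 77 nuclei, with a median of 35532 UMIs, held 60 *Lncbate1* and 1221 *6330411D24Rik* UMIs. The whole germ-like class held 79 and 1987. Among the classes of 300 or more nuclei, 2 values were singled out after they were seen. *Lncbate1* stood at 10.7% (8.35 to 13.6) of its Leydig-like level in Sertoli-like nuclei, where the other four were at 1.52 to 4.31% and the markers at 6.89%. *6330411D24Rik* stood at 7.96% (7.46 to 8.48) in surface epithelium-like nuclei, where the other four were at 0.631 to 1.28% and the markers at 5.84%. In the 95 endothelial-like nuclei *Gm36037* stood at 13.4% (8.79 to 19.7, 27 UMIs), where the other four were at 6.08 to 7.94% and the markers at 11.8%.

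**Figure D2:**
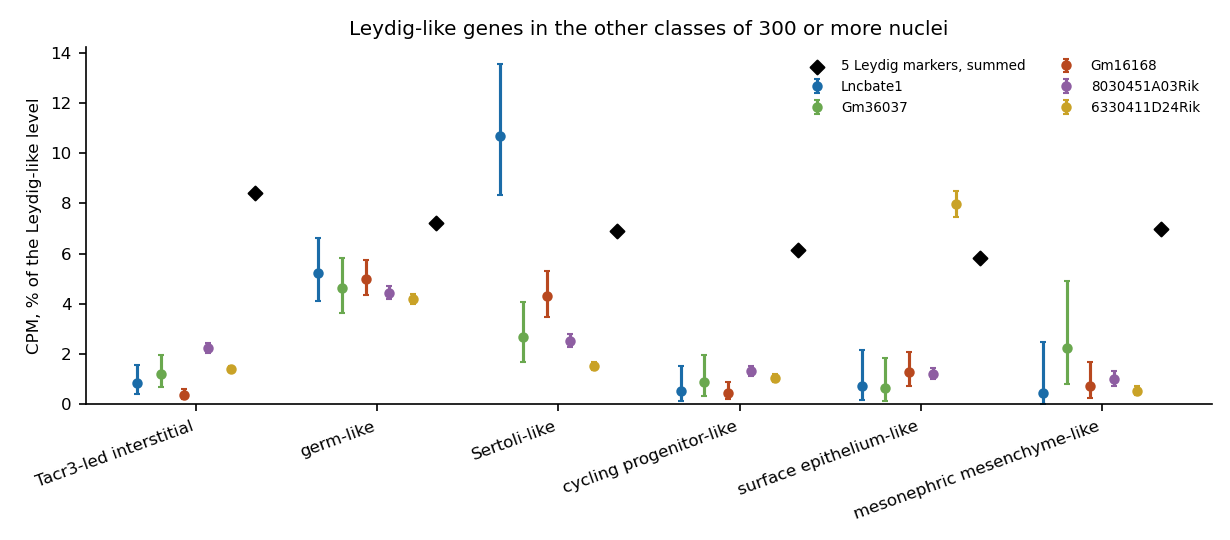
Level of the 5 Leydig-like genes in the other classes of 300 or more nuclei, as percent of the Leydig-like level with 95% counting intervals. Diamonds are the sum of 5 Leydig markers. *Lncbate1* in Sertoli-like nuclei (10.7%) and *6330411D24Rik* in surface epithelium-like nuclei (7.96%) lie above the other four genes.

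The levels of *Lncbate1* in Sertoli-like and of *6330411D24Rik* in surface epithelium-like nuclei were about the same after 880 nuclei that Scrublet marked at its automatic threshold, or that held over 50000 UMIs, were left out, a step chosen after seeing the data. *Lncbate1* then had 7.68 CPM in Sertoli-like nuclei (54 UMIs, 7.87 CPM before), whereas it went from 3.85 to 0.0915 CPM in germ-like nuclei (1 UMI). *6330411D24Rik* had 195 CPM in surface epithelium-like nuclei (808 UMIs, 184 CPM before), whereas it went from 209 to 4.04 CPM in pericyte-like nuclei (2 UMIs) and from 96.8 to 13 CPM in germ-like nuclei. *Gm36037* went from 11.6 to 1.89 CPM in endothelial-like nuclei (1 UMI). Some levels that were not singled out held as well. *Gm16168* had 9.38 CPM in Sertoli-like nuclei (66 UMIs, 9.78 CPM before). *6330411D24Rik* had 31.8 CPM in the *Tacr3*-led class (486 UMIs, 31.9 CPM before). Others fell, as *8030451A03Rik* did in Sertoli-like nuclei, from 40.7 to 14.2 CPM. Holding a level through this step was therefore not particular to the levels singled out. For other classes the ratios were higher: that of *Gm10863* over its next class went from 6.62 to 22.5 (9.61 to 69.3), that of *Gm14226* from 8.14 to 12.9 (8.72 to 19.96) and that of *Gm30613* from 12.2 to 60.5 (41.5 to 91.8). For *Lncbate1*, *Gm36037* and *8030451A03Rik* the ratios were lower, at 8.54 (2.35 to 70.7), 6.84 (2.33 to 33.3) and 11.3 (8.05 to 16.3), where the next class was erythroid-like with 2, 3 and 34 UMIs. Before this step the 35 *8030451A03Rik* UMIs of erythroid-like nuclei came from 3 of 45 nuclei, so the last interval is too narrow. The *2600014E21Rik* level in immune-like nuclei went from 139 to 65.3 CPM. In *Tacr3*-led nuclei it was 319 CPM, and *4833422C13Rik* kept 198 CPM in pericyte-like nuclei (98 UMIs) against 127 CPM in the *Tacr3*-led class. The same 8 genes were called by their ratio, although the intervals of *Lncbate1* and *Gm36037* reach below 4, and the background was 8.74% of 14290 genes.

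Shares of nuclei with at least 1 UMI were compared at 2000 UMIs per nucleus, drawn at random, and 75 shallower nuclei were not used. In Leydig-like nuclei *8030451A03Rik* was detected in 85.8% of 783 nuclei (83.2 to 88.2), *6330411D24Rik* in 75.6% (72.4 to 78.6), *Gm16168* in 30.1% (26.9 to 33.5), *Lncbate1* in 12.9% (10.6 to 15.5) and *Gm36037* in 12.8% (10.5 to 15.3). In germ-like nuclei these genes were found in 0.514 to 6.28% of nuclei. Without thinning the shares in Leydig-like nuclei, which had a median of 9582 UMIs, were 96.1, 83.2, 60.3, 39.4 and 39.9% in the same order of genes, and those in germ-like nuclei, with a median of 15504.5 UMIs, were 3.18 to 23.0%. In Sertoli-like nuclei *Gm14226* was found in 52.4% (48.95 to 55.8) and *Gm10863* in 31.4% (28.2 to 34.7), against 2.98 and 2.06% of germ-like nuclei. *Gm30613* was found in 17.8% (14.7 to 21.2) of surface epithelium-like nuclei and in 0.412% of germ-like nuclei, and *6330411D24Rik* in 19.6% (16.4 to 23.1) of surface epithelium-like nuclei. For *2600014E21Rik* the share was 33.6% in the *Tacr3*-led class and 27.8% in cycling progenitor-like nuclei. *4833422C13Rik* was the exception to the order of levels at this depth, with 19.6% (18.0 to 21.2) in the *Tacr3*-led class and 11.8% (5.22 to 21.9) in pericyte-like nuclei, where only 8 of 68 nuclei had a UMI. Without thinning its share was highest in pericyte-like nuclei, at 51.5%, and *2600014E21Rik* became the exception, with 50.5% (48.5 to 52.4) of *Tacr3*-led and 52.5% (48.8 to 56.1) of cycling progenitor-like nuclei. Unthinned shares of *Gm14226* and *Gm10863* were 89.8 and 72.2% in Sertoli-like nuclei and that of *Gm30613* was 33.6% in surface epithelium-like nuclei.

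Some of the 5 Leydig-like genes were found in the same nuclei more often than their separate shares give. At 2000 UMIs, *8030451A03Rik* and *6330411D24Rik* were found together in 70.6% of Leydig-like nuclei (67.3 to 73.8), where independent detection gives 64.9%. *Lncbate1* and *Gm16168* were found together in 5.87% (4.33 to 7.76), where it gives 3.89%. In 4 of the 10 pairs the interval lay above the independent share, and in 5 of 10 without thinning, but only 2 pairs were the same, *6330411D24Rik* with *Lncbate1* and with *Gm16168*. Without thinning the interval held the independent share for both pairs first named, with 82.6% (79.7 to 85.2) against 79.9% and 26.5% (23.4 to 29.7) against 23.8%. Among the 783 nuclei, 8.81% had none of the 5 genes, 37.2% had 2, 29.1% had 3 and 0.766% had all 5. At the finer resolution the Leydig-like cluster had 740 nuclei and held 641 *Lncbate1* and 752 *Gm36037* UMIs. The 786 Leydig-like nuclei used here held the same counts. The part that total UMIs, doublets or nuclei of the class that lack these genes have in this was not tested.

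Coding genes with the most similar profile over the 12 classes were named by Pearson's r of log2(CPM + 1) among 11646 coding genes. These r values describe 12 points that share libraries and depth. The genes were picked for the highest r, a choice that favours the same leading and next classes, so nothing is read from a shared class. For *Gm36037* they were *Alas1*, the first enzyme of haem synthesis (r = 0.951), *Lhcgr*, the luteinizing hormone receptor, and *Dhcr7*, a cholesterol synthesis enzyme. For *8030451A03Rik* they were *Hao2*, *Crhr1*, the corticotropin-releasing hormone receptor, and *Lhcgr*, and for *Gm16168* *St8sia5*, *Ralgapa1* and *Crhr1*. For *Lncbate1* they were *Acsbg1*, which activates fatty acids (r = 0.947), *Prkar2b*, a regulatory subunit of protein kinase A, and *Acly*, which makes acetyl-CoA from citrate. Of these, *Acsbg1* at 150 CPM and *Acly* at 79.1 CPM also had Sertoli-like nuclei as their next class. For *6330411D24Rik* they were *Nckap5*, *Fsip2* and *Kifc3*, of which *Kifc3* had surface epithelium-like nuclei as its next class, at 23.2 CPM against 85.9 CPM in Leydig-like nuclei.

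In the other classes the most similar gene to *Gm10863* was *Hsd17b3*, which converts androstenedione to testosterone, with r = 0.988. *Hsd17b3* had 765 CPM in Sertoli-like and 90.5 CPM in endothelial-like nuclei, the same first and second classes as *Gm10863*, as the choice by r favours. Without the 880 nuclei left out above, *Gm10863* had only 9.45 CPM (5 UMIs) in endothelial-like nuclei. For *Gm14226* they were *Sgpp2*, *Fstl4* and *Dtna*, for *Gm30613* *Krt7*, a keratin, *Pcnx2* and *Dpp4*, for *2600014E21Rik* *Ptpro*, *Srpx2* and *A4galt*, and for *4833422C13Rik* *Colec11*, *Adra1a*, an adrenergic receptor, and *Pld5*.

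Chromatin at the starts was read in peaks within 1 kb, as transposase cuts per 1000000 in the leading class over those in all other nuclei. The choice of members named promoter peaks, so these counts are a description too. Of the 10 genes, 7 had such a peak and 3 reached 2 times: *Lncbate1* with 3.33 (2.47 to 4.44, 63 of 267 cuts), *8030451A03Rik* with 3.09 (2.37 to 3.98, 79 of 355 cuts) and *Gm16168* with 2.08 (1.14 to 3.58, 16 of 99 cuts). The background was 17.8% of 13520 genes, and 56.2% of the 737 genes whose RNA was called at 4 times. The *6330411D24Rik* peak had a ratio of 0.766 (0.400 to 1.34), although this gene had the most Leydig-like UMIs of the 10. *2600014E21Rik* had 1.52 (1.25 to 1.84), *Gm14226* 1.36 (0.980 to 1.86) and *4833422C13Rik* 0.643 (0.0775 to 2.34, on 2 cuts in its class), the last from a peak shared with the *Acot12* start. *Gm36037*, *Gm10863* and *Gm30613* had no peak within 1 kb. Cuts come in pairs, so intervals on cuts are too narrow.

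Fragments with an end within 500 bases of the start needed no peak, and were counted after seeing the data. *Gm10863* then stood out, with 42 of 86 fragments in Sertoli-like nuclei and a ratio of 7.52 (4.81 to 11.8), although no peak had been called there. *Gm14226* had 17 of 53 fragments in Sertoli-like nuclei, a ratio of 3.72 (1.96 to 6.80), *Lncbate1* 37 of 155 in Leydig-like nuclei (3.43, 2.31 to 5.01), *8030451A03Rik* 25 of 137 (2.44, 1.52 to 3.798) and *2600014E21Rik* 58 of 126 in the *Tacr3*-led class (2.02, 1.40 to 2.91). At the *2600014E21Rik* start the highest class was cycling progenitor-like, with 5.72 against 5.11 fragments per 1000000, as it was in the start peak, with 22.3 against 21.3 cuts per 1000000. *Gm16168* fell just short, with 7 of 47 fragments and 1.92 (0.724 to 4.32). This made 5 of the 9 genes with at least 20 fragments, beside 19.2% of 14202 genes, 22.4% of 1407 other noncoding genes and 58.1% of the 853 other genes with a 4-fold RNA ratio. Within 1000 bases 4 genes reached 2 times, beside 18.9% of 14737 genes: *Gm14226* went to 1.72 and *2600014E21Rik* to 1.67, under the threshold, *Gm16168* rose to 2.53, and *Gm10863* (5.29), *Lncbate1* (2.98) and *8030451A03Rik* (2.21) stayed above it. *6330411D24Rik* had a ratio of 1.02 (0.397 to 2.21) within 500 bases and 0.941 (0.458 to 1.74) within 1000. *Gm36037* had none of 24 fragments in Leydig-like nuclei within 500 bases, with an upper limit of the ratio of 1.82, and 1 of 31 within 1000.

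**Figure D3:**
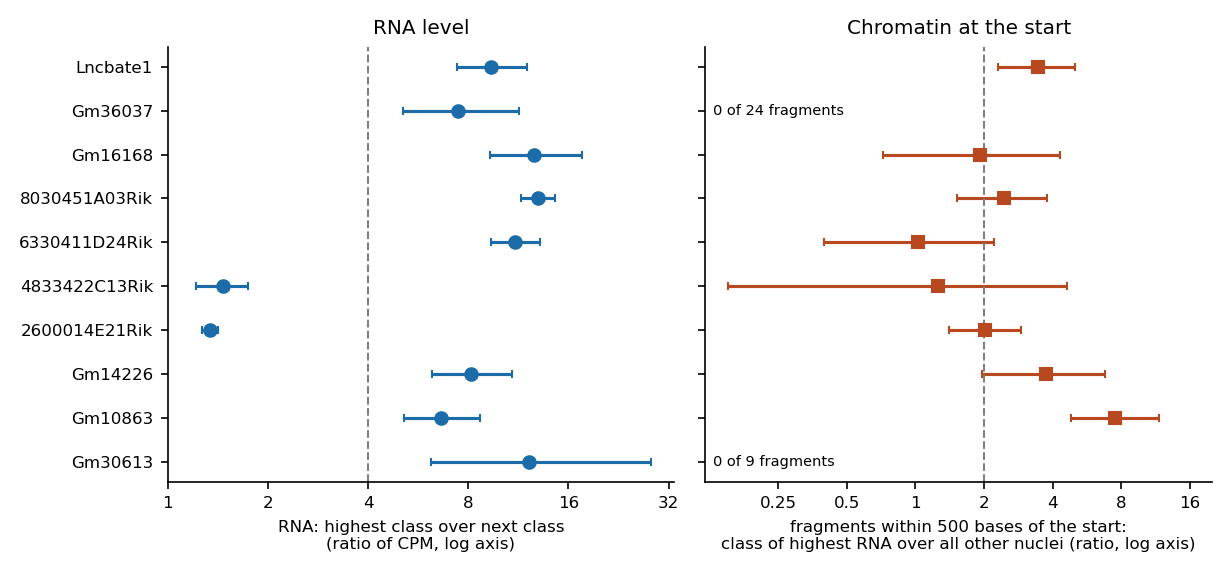
Left, the CPM of the highest class over that of the next class for each gene, with 95% counting intervals on a log axis and the 4-fold line dashed. Right, ATAC fragments per 1000000 within 500 bases of the start in that class over all other nuclei, with the 2-fold line dashed. *Gm10863* has the highest ratio at its start (7.52), while *6330411D24Rik* has a Leydig-like RNA ratio of 11.1 and a start ratio of 1.02.

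The shape around the start differed between genes. At *Lncbate1* cuts formed a single summit at the start, higher in Leydig-like nuclei, and its start peak was the only one of 15 peaks in the gene and 100 kb on either side that reached 2 times. At *Gm14226* the broad peak that was counted lies about 1 kb downstream and was about as open in all other nuclei, at 3.02 against 2.53 cuts per 1000000 in the bin centred at 875 bases, whereas 21 Sertoli-like cuts fell in the bin from 500 to 250 bases before the start, at 2.44 cuts per 1000000 against 0.147. At *Gm10863* the Sertoli-like cuts lay at and before the start, with 33 cuts in the 250 bases before it, at 3.83 against 0.236 cuts per 1000000.

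**Figure D4:**
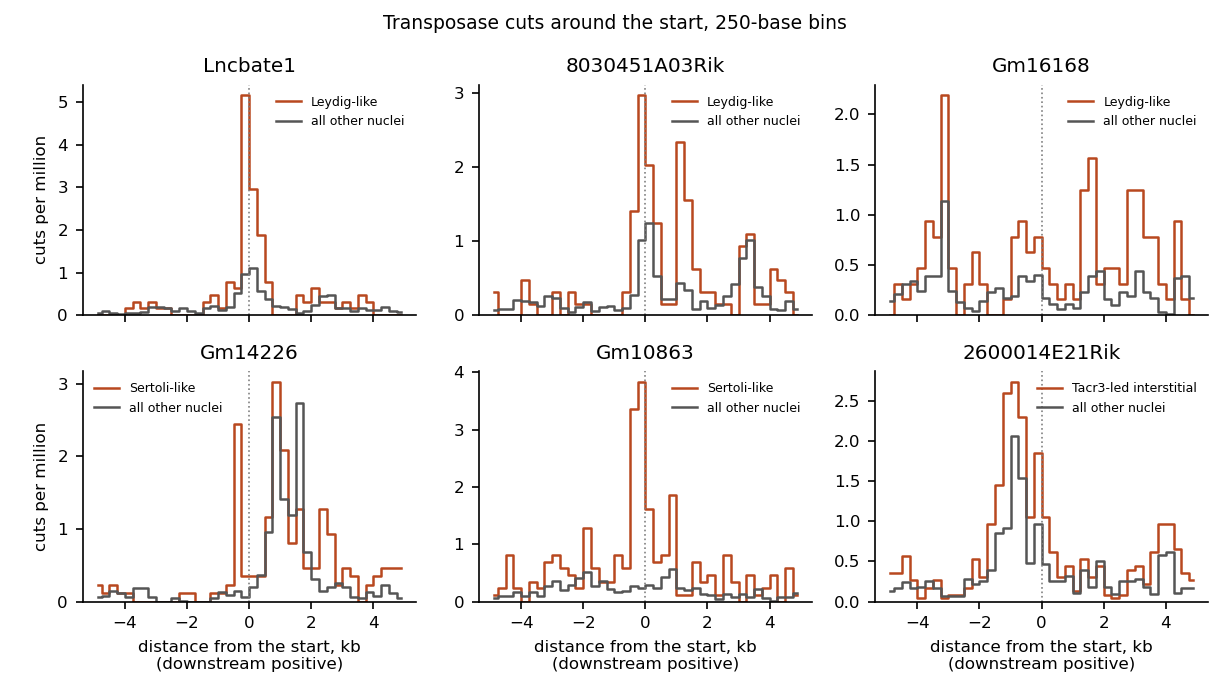
Transposase cuts per 1000000 in 250-base bins within 5 kb of the start of 6 genes, in the class of highest RNA (orange) and in all other nuclei (grey). Leydig-like cuts stand above the rest at the *Lncbate1* start, and Sertoli-like cuts stand above the rest at the *Gm10863* start and just upstream of the *Gm14226* start.

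The *Gm14226* and *Gm30613* loci are repeated in the genome, which limits what can be placed there. All 269 words of 32 bases in the *Gm14226* promoter occurred at other places in GRCm38.p6 too, with a median of 97 places, and 79.5% of the words of its transcript did. Of 32136 promoters, 4.31% were repeated over their whole length in this way and 2.01% had a median of at least 97 places. A stretch of 524 identical bases, in the same direction, covers both ends of the gene, from −402 to 121 relative to its start and again from −424 to 99 relative to its end. No repeat annotation was used here. The Sertoli-like cuts upstream of *Gm14226* fell at the outer edge of this stretch. For *Gm30613*, 88.1% of promoter words and 63.4% of transcript words had other places, with a median of 5 and 4 places, and its start had only 9 fragments. In the other 8 genes at most 5.50% of the words of promoter or longest transcript were repeated. Introns, whose reads are counted too, were not searched for any gene. How the aligner shared such reads was not tested, so the counts of *Gm14226* and *Gm30613* are uncertain as counts of these single loci.

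Peaks away from the starts were read in the same way. Across all 10 loci the peak with the highest ratio was at 111 kb within *Gm36037*, with 28 of 60 cuts in Leydig-like nuclei and a ratio of 9.43 (5.47 to 16.2). *6330411D24Rik* had peaks at 41.6 kb with 4.65 (2.69 to 7.81) and at 18.2 kb with 4.49 (2.70 to 7.27), so its gene body held Leydig-biased peaks although its start did not. *8030451A03Rik* had 4.95 (3.05 to 7.86) at 1.33 kb, in a peak that reaches to within 1 kb and is 1 of the 2 counted at its start, *Gm16168* 4.83 (3.03 to 7.53) at 23.2 kb before the start, *Gm10863* 5.66 (4.18 to 7.64) at 27.3 kb and *Gm30613* 3.71 (1.997 to 6.52) at 16.7 kb. Within a gene and 100 kb on either side, 6 of 23 peaks reached 2 times in Leydig-like nuclei at *Gm36037*, 6 of 22 at *Gm16168*, 6 of 23 at *8030451A03Rik* and 9 of 52 at *6330411D24Rik*, against 10.1% of all 108970 peaks of 20 cuts, while *Lncbate1* had 1 of 15. For Sertoli-like nuclei it was 4 of 23 at *Gm10863* and 1 of 19 at *Gm14226*, against 14.3%. For *Gm30613* it was 2 of 12 against 10.2%, for *2600014E21Rik* 3 of 27 against 7.49% and for *4833422C13Rik* 4 of 15 against 17.7%. These peaks were picked as the highest of their loci and no link to a gene was tested.

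**Figure D5:**
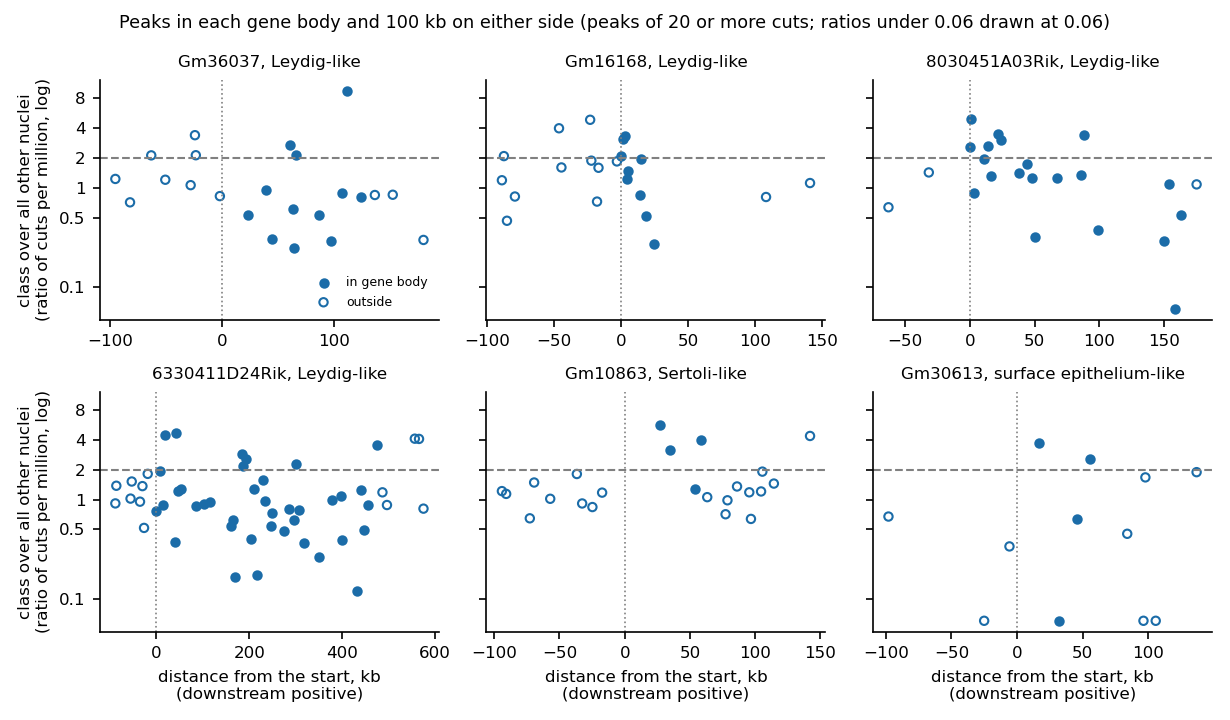
Ratio of cuts per 1000000 in the named class over all other nuclei for each peak of 20 or more cuts, by distance from the start in kb, on a log axis with the 2-fold line dashed. Filled points lie in the gene body. The highest ratio is 9.43, inside *Gm36037* at 111 kb from its start.

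The coding gene with the nearest start was in most cases led by another class. *Gm10863* and *Sox10* were the 1 pair of 10 with the same leading class by point estimate, beside 30.3% of 1625 other noncoding genes. With classes from RNA alone there were 2 pairs (*Ahcy* added) and with classes from ATAC alone 4 (*Tnc*, *Acot12* and *Ahcy* added). The classes from ATAC alone were fewer and held no pericyte-like or erythroid-like class. The background holds only pairs in which both genes had at least 100 UMIs, which *Acot12* and *Speer4d* did not reach, so it matches 8 of the 10 pairs. With the nearest coding gene of at least 100 UMIs the count was 1 as well, beside 29.3% of 1884. *Sox10*, a transcription factor known from neural crest and glia, starts 0.818 kb away on the opposite strand. It had 175 UMIs in all, of which 151 were in Sertoli-like nuclei, at 15.2 CPM (12.9 to 17.9), 42.6 times (27.6 to 68.5) the level in all other nuclei. The *Sox10* start had 21 of 54 fragments in Sertoli-like nuclei, a ratio of 5.02 (2.76 to 8.93). Fragments near both starts can be the same ones. No class was named from the list of glial markers, whose markers other than *Sox10* summed to at most 37.3 CPM in any class. By mean z-score of its markers, this list came second in the Sertoli-like class, at 1.65 against 2.11 for the Sertoli list. It also came second in the germ-like class, at 1.57. Whether some Sertoli-like nuclei are glial was not tested.

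By point estimate, the remaining nearest coding genes were not led by the class of the member beside them, but some of these leads were narrow. *Zfhx3* starts 642 kb from *Lncbate1* and was 132 CPM in Leydig-like nuclei, 0.599 times (0.564 to 0.636) the other nuclei. *Tnc*, an extracellular matrix protein that overlaps *8030451A03Rik*, had 86.5 CPM in Leydig-like nuclei (80.4 to 92.9), 3.73 times (3.41 to 4.07) the other nuclei. It was 96.4 CPM in the 68 pericyte-like nuclei and 89.8 CPM in surface epithelium-like nuclei, and whether these classes differ was not tested. *Hspa9* (28.6 kb from *Gm36037*) was at 0.870 times, *Qk* (177 kb from *Gm16168*) at 0.987, *Prdm2* (139 kb from *6330411D24Rik*) at 1.17 and *Mtx2* (313 kb from *2600014E21Rik*) at 0.932. *Prdm2* had 229 CPM in germ-like and 226 CPM (216 to 236) in Leydig-like nuclei, so its leading class is not resolved. *Ahcy*, 56.2 kb from *Gm14226*, had 8.07 CPM in Sertoli-like nuclei, 2.45 times (1.87 to 3.18) the other nuclei, just under the 9.87 CPM of erythroid-like nuclei, which rested on 4 UMIs. *Acot12*, 0.360 kb from *4833422C13Rik*, had 96 UMIs in all and 1 in pericyte-like nuclei, and *Speer4d*, 14.0 kb from *Gm30613*, had none.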

How the data were processed

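Nuclei of frozen E14.5 testes were profiled with the 10x multiome assay, 1 RNA and 1 ATAC library from the same nuclei. Per the labels and the study's methods, the authors aligned the reads to mm10 with Cell Ranger ARC 2.0.1 and deposited a filtered matrix of raw counts (UMIs of each gene, transposase cuts of each peak) and a file of ATAC fragments. The program was run at default settings, which count sense-strand reads in exons and introns. The 9833 barcodes held 122049390 UMIs and 38243814 cuts at 109215 peaks.

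A nucleus was kept if it had more than 500 genes, between 250 and 25000 fragments in peaks making up more than 20% of its fragments, and UMIs that were less than 10% mitochondrial, 10% ribosomal protein and 0.5% haemoglobin (7668 nuclei). Scrublet, run in scanpy 1.11.5, ranked doublets, and 0.8% per 1000 nuclei (470 nuclei) were removed. Ambient RNA was not removed, whereas the study used DecontX for this. The remaining 7198 nuclei, with a median of 3157.5 genes, were clustered on RNA (2000 variable genes) and ATAC together with Seurat 5.3.0 in R 4.3.3, with 30 components and resolution 0.3. The members, their neighbours and peaks within 100 kb (24 genes and 232 peaks) were kept out. A cluster was named "-like" from marker lists. The members and lists were chosen with earlier results of these data known.

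Levels are CPM, the UMIs of a gene in a class over all UMIs of that class (SciPy 1.17.1, Python 3.11.15). A gene of at least 100 UMIs was called at 4 times the next class, and promoter peaks of at least 20 cuts within 1 kb of the start at 2 times all other nuclei. Intervals are exact at 95% (Poisson, conditional binomial and Clopper-Pearson) and cover counting error only. Besides the members, the nearest and overlapping coding genes, the 3 coding genes of most similar profile (at least 10 CPM in the highest class) and a list of well-known long noncoding RNAs were named. One overlapping gene is not reported here. Gene models were GENCODE M21 and sequences came from GRCm38.p6. The counting steps were run on simulated independent Poisson counts, which is what the intervals assume. Such counts cannot show the effect of ambient RNA, doublets or UMIs that come from few nuclei. Alternatives changed the clustering, nuclei filters, doublet removal, averaging, minimum counts, promoter window and thinning.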

Additional observations from a re-analysis of the deposited data

How the results depend on the processing

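No paired analysis was possible because each assay had 1 library, so no replicate could be left out either. The 8 genes called at 4 times the next class were 8 in 9 of 10 alternatives and 7 with classes from RNA alone, where *Gm36037* had a ratio of 3.09. Over 8 of these settings the leading class was the same throughout for 8 genes, in 7 of 8 for *4833422C13Rik* and in 3 of 8 for *2600014E21Rik*, which in the other 5 was highest in a class named progenitor-like, with ratios of 1.72 to 3.07. Shared nuclei between that class and the *Tacr3*-led class were not counted. Of 80 ratios, 50 stayed within the counting interval and 30 did not, so these intervals understate the dependence on processing. Ratios over the next class ran from 4.58 to 22.7 for *Gm16168*, 4.97 to 22.5 for *Gm10863*, 7.91 to 63.7 for *Gm30613*, 8.12 to 22.7 for *8030451A03Rik*, 3.09 to 16.9 for *Gm36037*, 4.76 to 11.4 for *Lncbate1*, 5.05 to 12.9 for *Gm14226*, 7.50 to 14.8 for *6330411D24Rik*, 1.31 to 3.07 for *2600014E21Rik* and 1.08 to 2.11 for *4833422C13Rik*. Promoter peaks at 2 times were 3 as reported, 2 with stricter nuclei filters or with nuclei in place of cuts, 5 with fragments within 500 bases of the start and 4 with fragments within 1000 bases, both chosen after seeing the data. *Gm14226* and *2600014E21Rik* were called within 500 bases and not within 1000, and *Gm16168* the reverse. Nearest coding genes with the same leading class were 1 as reported, 2 with classes from RNA alone, 4 with classes from ATAC alone, 2 with Scrublet at its automatic threshold and 2 with at least 1000 genes and 1000 fragments at peaks. The classes from ATAC alone were fewer, which holds for the count at 4 times the next class too. They held no pericyte-like class, which as reported led *Tnc* and *4833422C13Rik*, and no erythroid-like class, which led *Ahcy*. Neither class could lead there. What else moved these counts was not tested. Pairs of Leydig-like genes found together beyond the independent share were 4 thinned and 5 not thinned, of which 2 pairs were the same, and 9 of 10 genes had their highest share of nuclei in the leading class at each depth, the exception being *4833422C13Rik* at 2000 and 1000 UMIs and *2600014E21Rik* without thinning. At the starts *Gm30613* had 9 fragments and *Gm36037* 24, too few to show a modest difference.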
